A study of Homo sapiens with 4 samples.

Results

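Keratins are the intermediate filament proteins of epithelial cells, and 10 of their genes (KRT4, KRT7, KRT8, KRT13, KRT15, KRT17, KRT18, KRT19, KRT80 and KRT81) were followed in A549 cells with and without overexpression of USP12, a deubiquitinase. They were taken by gene name from the deposited count files, which list 50868 genes, and each name matched 1 row. A549 is an established human lung adenocarcinoma line. RNA-seq was done on 4 libraries: the 2 control libraries came from cells with the empty vector, and the other 2 from cells that overexpressed USP12. The methods describe lentiviral pLVX vectors for tagged USP12, and do not say whether the A549 lines were pools or single clones. As nothing states that the 2 libraries of a group came from separate cultures, the p-values measure the spread between these libraries, which may be technical.

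Keratin filaments are built from obligate pairs of a smaller acidic type I chain and a larger type II chain, so an epithelial cell needs both. KRT8 (type II) and KRT18 (type I) are the first pair made by simple epithelia, and KRT7 and KRT19 join them in ducts and airways. KRT15 and KRT17 are type I keratins known from basal and stressed epithelium, KRT4 and KRT13 are the pair of the upper layers of internal stratified epithelium, and KRT81 is a type II hair keratin. KRT80 is a type II keratin linked to late stages of epithelial differentiation. Of the 10 genes, KRT13, KRT15, KRT17, KRT18 and KRT19 are type I and the others type II. All type II genes and KRT18 lie on chromosome 12, and the remaining type I genes lie on chromosome 17.

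The libraries held between 14280081 and 16305356 counts, and 15222 genes passed the filter on low counts and were tested with edgeR's quasi-likelihood test. Levels are given as CPM, the count of a gene in relation to the counts of all tested genes in its library, scaled with edgeR's TMM factors. A count of 3, taken as the limit of detection, equals 0.166 to 0.227 CPM depending on the library (counting error only). USP12 itself was at 15.2 and 34.4 CPM in control cells and at 1745 and 2235 CPM in USP12 cells. The control libraries differed from each other (SD of the log2 ratio over tested genes 1.32) more than the USP12 libraries did (0.62). Between control replicate 1 and USP12 replicates 1 and 2 that SD was 1.28 and 1.31, and for control replicate 2 it was 1.10 and 1.01. The control libraries were thus at least as far from each other as any control library was from a USP12 library. The column heading of control replicate 1 also has a prefix of its own, and as it covers 1 library, what it marks and that library cannot be told apart. Differences against each control library alone are therefore printed for each tested keratin. Of the marker lists, all 6 epithelial genes, 2 of which are KRT8 and KRT18, and all 7 A549-associated genes passed the filter. The A549 list summed to between 12687 and 14178 CPM, although some members differed. GPX2 had 22385 and 12959 counts in control cells and 6502 and 4749 in USP12 cells. Both USP12 libraries lay below both control libraries for 2 of the 7 (GPX2 and NQO1) and above them for 2 (AKR1C1 and AKR1C2). Of all tested genes 17.0% lay below and 19.5% above in this way. Among the other epithelial markers CLDN7 had 40 and 101 counts in control cells and 5 and 10 in USP12 cells, and EPCAM 376 and 254 against 153 and 140, while for CDH1 (E-cadherin) and CLDN4 the groups overlapped. Markers of other cells were low with a few exceptions. Of 6 alveolar type 2 markers 4 never had more than 3 counts, and LAMP3 had 26 and 101 counts against 6 and 4. Of the leukocyte markers PTPRC and CD3E had at most 1 count, while CD68 had between 686 and 1044 and LYZ 11 and 27 against 1 and 3. Of 7 fibroblast markers COL1A2 and DCN had at most 2 counts, while COL1A1 had 172 and 47 against 262 and 211. The 3 endothelial markers summed to 15.4 and 8.59 CPM in control cells and 0.432 and 1.32 CPM in USP12 cells, with PECAM1 at 68 and 56 counts against 4 and 14, CDH5 at 136 and 96 against 2 and 5, and VWF at 3 or fewer. The part of these markers in the keratin results was not tested.

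Most of the expressed keratins were lower in USP12 cells than in control cells, though none passed an adjusted p of 0.05. KRT4 was 8.63-fold lower, KRT15 5.40-fold, KRT19 4.42-fold and KRT81 2.58-fold. KRT8 and KRT18 were 1.79-fold and 1.70-fold lower, KRT7 was 1.03-fold higher and KRT80 1.71-fold higher. KRT13 and KRT17 had 6 counts or fewer in each library. Summed over the 10 genes, the level was 18422 and 10430 CPM in control replicates 1 and 2, against 9112 and 8310 CPM in USP12 replicates 1 and 2. Both USP12 libraries were thus below both control libraries, and control replicate 1 stood far above the other 3. In bulk RNA, fewer cells making a keratin and less keratin mRNA per cell cannot be told apart.

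Of the 10 genes, 8 passed the filter, and 4 of them (KRT4, KRT15, KRT19 and KRT81) met a criterion for downregulation with the thresholds of the study, a log2 fold change no higher than -1 and a p no higher than 0.05, applied here to unadjusted p-values. The same criterion was met by 4.41% of all tested genes. Without control replicate 1 it was met by 2 keratins (KRT4 and KRT15) and 8.01% of all genes, and without control replicate 2 by 6 keratins and 13.3% of all genes. Without USP12 replicate 1 or 2 it was met by 3 keratins each time, with 1.86% and 2.09% of all genes. None met the mirrored criterion of 1 or higher (0 of 8), which 2.92% of tested genes met. The median log2 fold change of the 8 genes was -1.10, against -0.06 over all tested genes. Both USP12 libraries lay below both control libraries in 6 of the 8, as in 17.0% of all tested genes, and above them in 1, as in 19.5%. No keratin and no other gene had an adjusted p under 0.05 with the quasi-likelihood test (0 lower and 0 higher, 0% of genes). USP12 itself, with a log2 fold change of 6.32, had a quasi-likelihood adjusted p of 0.0975. An adjusted p over 0.05 in this fit therefore does not show that a gene was unchanged. At an unadjusted p under 0.05 the same fit gave 4 lower keratins, with 4.55% of all genes lower, and 0 higher keratins, with 3.04% of all genes higher.

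Other tests of the same counts called more genes at an adjusted p under 0.05. The edgeR exact test called KRT4 and KRT15 lower, among 1.72% of genes lower and 1.10% higher. The edgeR likelihood ratio test called the same 2 keratins, among 1.89% of genes lower and 1.22% higher. The DESeq2 Wald test called KRT4, KRT15 and KRT19, among 1.79% of genes lower and 0.874% higher. None of the 3 tests called a keratin higher (0 of 8).

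**Figure D1:**
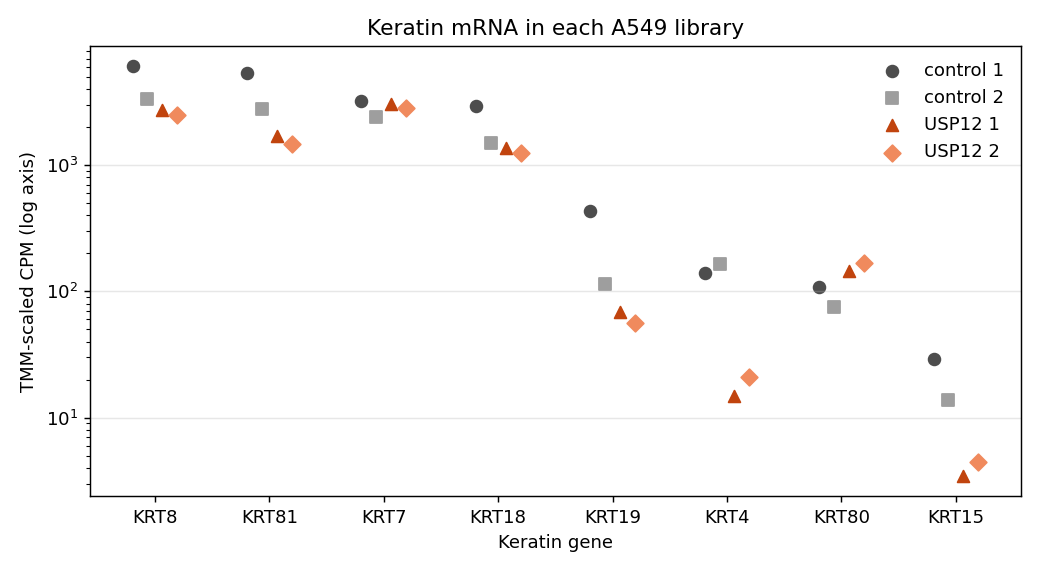
TMM-scaled CPM (log axis) of the 8 tested keratin genes in each library, with control libraries in grey and USP12 libraries in orange. KRT4 shows the widest gap between the groups, from 140 and 166 CPM down to 14.7 and 20.8 CPM, while for KRT7 the groups overlap.

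KRT8 (ENSG00000170421), the type II chain of the primary simple epithelial pair, is on the minus strand of chromosome 12 (GRCh38, 52897187 to 52949954). It had 6075 and 3337 CPM in control replicates 1 and 2, and 2747 and 2515 CPM in USP12 replicates 1 and 2. The groups did not overlap, but the gap between the control libraries was wider than that between control replicate 2 and the USP12 libraries. USP12 cells differed from control cells by a log2 fold change of -0.84 (approximate standard error, SE, 0.36, quasi-likelihood adjusted p = 0.691). It was -1.18 against control replicate 1 alone and -0.34 against control replicate 2 alone.

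KRT18 (ENSG00000111057), its type I partner, is the neighbouring gene (chromosome 12, 52948871 to 52952906, plus strand). Its level was 2967 and 1497 CPM in control cells and 1372 and 1261 CPM in USP12 cells, the same order of libraries as KRT8. Its log2 fold change was -0.76 (SE 0.40, quasi-likelihood adjusted p = 0.805), with -1.14 and -0.18 against control replicates 1 and 2 alone. The number of KRT8 counts per KRT18 count was 2.05 and 2.23 in control cells and 2.00 and 1.99 in USP12 cells. The pair thus kept nearly the same ratio in each library while its level differed by over 2-fold between the highest and the lowest.

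Many retrotransposed copies of both genes exist in the genome, and counts on them could come from either the copy or its parent. The files list 50 KRT8 pseudogenes, whose counts summed to between 3.01% and 3.27% of those of KRT8 in each library. Counts on the 66 KRT18 pseudogenes came to between 0.296% and 0.341% of those of KRT18. With these counts added to the parent, the log2 fold changes were -0.84 for KRT8 and -0.76 for KRT18. The annotated ends of KRT8 and KRT18 also overlap over 1084 bases on opposite strands. The libraries were made with a stranded kit, but whether the counting used strand is not stated.

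KRT7 (ENSG00000135480, chromosome 12, 52232520 to 52252186, plus strand), a type II keratin of glandular and ductal epithelium, had 3258 and 2414 CPM in control cells and 3041 and 2819 CPM in USP12 cells. Both USP12 libraries lay between the control libraries. The fitted log2 fold change was 0.05 (SE 0.30, quasi-likelihood adjusted p = 0.986), with -0.12 and 0.28 against control replicates 1 and 2 alone. Its last 2887 bases are also annotated to KRT86 on the same strand, so some fragments there could have been counted on either gene. On the other strand KRT7-AS overlaps it over 2401 bases and the pseudogene KRT87P over 1721 bases. KRT87P had 6086 and 5378 counts in control cells and 1633 and 1767 in USP12 cells (log2 fold change -1.66, quasi-likelihood adjusted p = 0.298).

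Ratios to KRT7 within a library do not depend on how libraries are scaled. There were 1.86 and 1.38 KRT8 counts per KRT7 count in control cells, and 0.903 and 0.892 in USP12 cells. For KRT18 the ratio was 0.911 and 0.620 in control cells and 0.451 and 0.447 in USP12 cells. On the log2 scale the mean ratio to KRT7 in USP12 cells differed from that in control cells by -0.84 for KRT8 and -0.74 for KRT18, while the control libraries differed from each other by 0.43 and 0.55. For each of these ratios the USP12 libraries lay below the controls. KRT7 itself had a log2 fold change of 0.05, so these differences restate the fold changes of KRT8 and KRT18 and add no separate evidence. KRT80 went the other way, with 0.0331 and 0.0312 counts per KRT7 count in control cells and 0.0481 and 0.0596 in USP12 cells.

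KRT19 (ENSG00000171345, chromosome 17, 41523617 to 41528308, minus strand) is the smallest keratin, a type I chain of simple and ductal epithelium that lacks most of the tail. It had 437 and 114 CPM in control cells and 68.7 and 55.9 CPM in USP12 cells. Control replicate 1 was far above the other 3, with a log2 difference of 1.94 between the controls. The log2 fold change was -2.14 (SE 0.66, quasi-likelihood adjusted p = 0.438), which became -0.87 against control replicate 2 alone and -2.78 against control replicate 1 alone. Without control replicate 1, KRT19 no longer met the criterion.

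**Figure D2:**
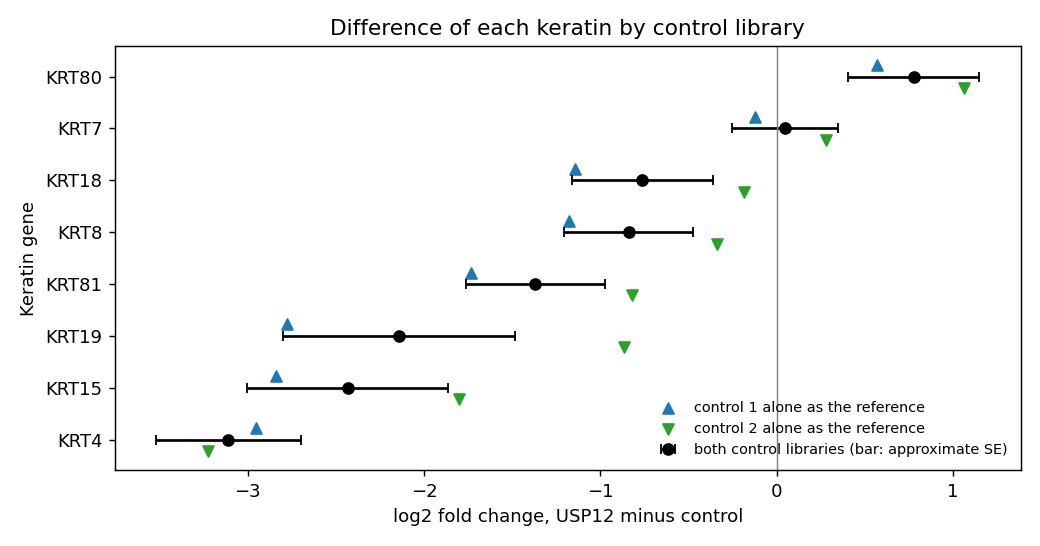
Log2 fold change (USP12 minus control) of the 8 tested keratins, with bars of the approximate standard error, and the same value with 1 control library alone as the reference (triangles). For KRT4 both references give similar values, -2.95 and -3.22, while for KRT19 they give -2.78 and -0.87.

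KRT15 (ENSG00000171346, chromosome 17, 41513745 to 41522529, minus strand), the type I keratin of basal cells and the direct neighbour of KRT19, was a minor transcript. It had 28.9 and 13.8 CPM in control cells and 3.46 and 4.43 CPM in USP12 cells, or 382 and 249 counts against 48 and 64. The USP12 libraries were both well below the lower control library. For KRT15 the log2 fold change was -2.43 (SE 0.57, quasi-likelihood adjusted p = 0.302), with -2.84 and -1.80 against control replicates 1 and 2 alone. Without USP12 replicate 1 it was -2.25, and the criterion was not met.

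KRT17, a type I keratin induced in injured and stratified epithelium (chromosome 17, 41619442 to 41624842, minus strand), had 5 and 6 counts in control cells and 0 and 2 in USP12 cells. The control levels of 0.378 and 0.332 CPM had exact Poisson 95% intervals of 0.123 to 0.883 and 0.122 to 0.724 CPM, which overlap those of the USP12 libraries (upper bounds 0.266 and 0.50 CPM, counting error only). KRT13, the type I partner of KRT4 (chromosome 17, 41500981 to 41505705, minus strand), had 1 and 2 counts in control cells and 0 in both USP12 libraries. Neither KRT17 nor KRT13 passed the filter. Without it both had a quasi-likelihood adjusted p of 0.900, and a difference in either was not detectable at this depth.

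KRT4 (ENSG00000170477), the type II keratin of mucosal stratified epithelium, showed the widest difference of the 8 tested genes. It lies on chromosome 12 from 52806549 to 52814116 on the minus strand, with no annotated gene overlapping it. Its level was 140 and 166 CPM in control cells and 14.7 and 20.8 CPM in USP12 cells, from 1856 and 3001 counts down to 204 and 301. Here control replicate 2, not replicate 1, was the higher of the control libraries, and the log2 difference between them was only -0.24. For KRT4 the log2 fold change was -3.11 (SE 0.41, quasi-likelihood adjusted p = 0.154), and -2.95 and -3.22 against control replicates 1 and 2 alone. The transcript of its usual partner KRT13 was at 2 counts or fewer in every library.

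As KRT4 had the widest difference of those tested, the 250 bases before its RefSeq start are shown, from the plus-strand interval chr12:52814117-52814366 of GRCh38.p14 and read 5′ to 3′ on the minus strand. Capitals mark the 50 bases next to the start, which is also that of the MANE Select transcript, the reference isoform agreed by RefSeq and Ensembl.
KRT4 promoter: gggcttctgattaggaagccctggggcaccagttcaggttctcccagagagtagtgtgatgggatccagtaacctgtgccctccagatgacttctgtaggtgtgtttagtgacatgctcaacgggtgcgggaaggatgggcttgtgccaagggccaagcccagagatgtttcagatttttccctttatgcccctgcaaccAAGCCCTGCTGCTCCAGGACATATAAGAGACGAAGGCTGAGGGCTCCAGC

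The RefSeq promoter table used here has entries for 2 of the 10 genes, KRT4 and KRT8, each covering 250 bases before and 50 after a start. The entry of KRT8 begins at a start 21393 bases from that of its MANE Select transcript, so it is not printed. Both strands of the windows were searched for TGANTCA (AP-1), GGGNNTTTC (the first 9 letters of an NF-κB site), GGGCGG (SP1), TATAAA and GGAATG (TEAD). The KRT4 window held none of these 5 letter strings. The KRT8 window held 1, GGAATG, which is found in 14.0% of the 35116 windows in the table. It begins 17 bases after the start of that entry, so it is not upstream of it, and is far from the MANE Select start. Of all windows, 7.71% held TGANTCA, 4.78% GGGNNTTTC, 45.0% GGGCGG and 11.5% TATAAA.

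KRT80 (ENSG00000167767, chromosome 12, 52168996 to 52192014, minus strand) was the only keratin of the 8 in which both USP12 libraries were above both control libraries. It had 108 and 75.4 CPM in control cells and 146 and 168 CPM in USP12 cells. Its log2 fold change was 0.78 (SE 0.37, quasi-likelihood adjusted p = 0.754). Against control replicate 2 alone it was 1.06, while against control replicate 1 alone it was 0.57. Control cells had 0.769 and 0.454 KRT80 counts per KRT4 count, and USP12 cells 9.97 and 8.06. The noncoding gene LINC00592 is annotated over all of KRT80 on the other strand.

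KRT81 (ENSG00000205426, chromosome 12, 52285913 to 52291534, minus strand) is a hair keratin. It had 5407 and 2813 CPM in control cells and 1719 and 1466 CPM in USP12 cells. The USP12 libraries were both below the lower control library. Its log2 fold change was -1.37 (SE 0.39, quasi-likelihood adjusted p = 0.398). It was -1.73 against control replicate 1 alone and -0.82 against control replicate 2 alone, the latter short of the size the criterion asks for. Without USP12 replicate 2 the log2 fold change was -1.25, and the criterion was not met either. Per KRT7 count there were 1.66 and 1.17 KRT81 counts in control cells and 0.565 and 0.520 in USP12 cells.

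The KRT81 gene lies wholly within the annotated span of KRT86 on the other strand, and hair keratins resemble each other closely, so their counts are uncertain. KRT86 had 6839 and 5691 counts in control cells and 2000 and 2026 in USP12 cells, with a log2 fold change of -1.55 (quasi-likelihood adjusted p = 0.321) that also met the criterion. There were 10.4 and 8.92 KRT81 counts per KRT86 count in control cells and 11.9 and 10.4 in USP12 cells. With the counts of KRT86 added to those of KRT81, the log2 fold change was -1.38. KRT83, a further hair keratin, had 112 and 90 counts in control cells and 35 and 43 in USP12 cells (log2 fold change -1.29, quasi-likelihood adjusted p = 0.716).

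Levels of different keratins can be compared only per length. By CPM per kilobase of the MANE Select transcript, KRT8 had the highest level in both control libraries, 3405 and 1870, and KRT7 was the highest in both USP12 libraries, 1871 and 1735. KRT81 had 2803 and 1458 in control cells and 891 and 760 in USP12 cells, and KRT18 had 2100 and 1059, then 971 and 892. The order of KRT81, KRT7 and KRT18 was not the same in the 2 control libraries. In USP12 cells KRT8 was second in both libraries, with 1540 and 1410, above KRT18 and KRT81. KRT19 was well below these, with 314 and 81.9 in control and 49.5 and 40.2 in USP12 cells. In control cells it was followed by KRT4 (65.6 and 77.7) and KRT80 (27.9 and 19.5), and in control replicate 2 the levels of KRT19 and KRT4 were close to each other. In USP12 cells KRT80 (37.8 and 43.4) was below KRT19 in the first library but higher than it in the other, and stood above KRT4 (6.86 and 9.74). KRT15 had 16.9 and 8.06 in control and 2.02 and 2.59 in USP12 cells. The order of KRT8, KRT18 and KRT81 depended on the length used, as given below.

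**Figure D3:**
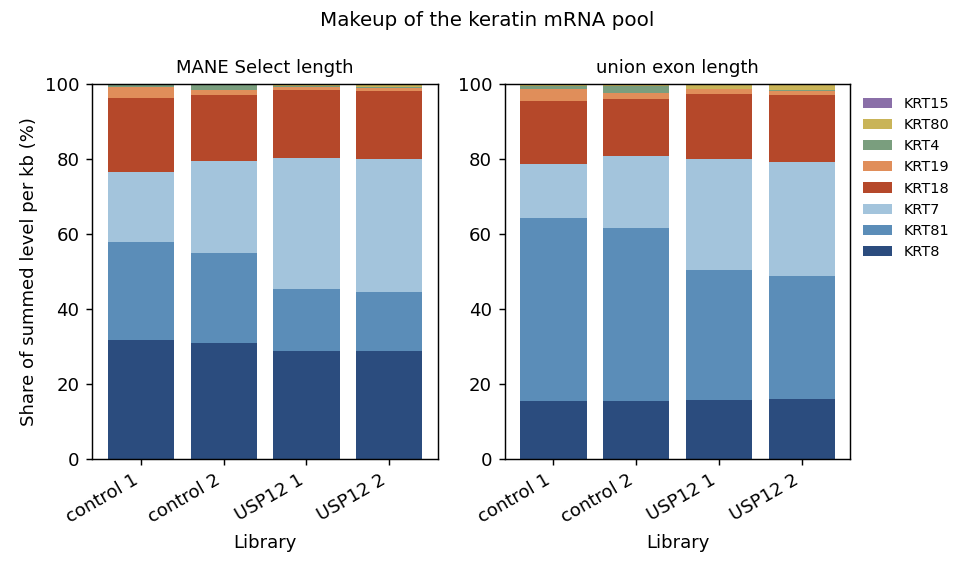
Share (%) of each tested keratin in the level summed over the 10 genes, per kilobase, in each library, with the MANE Select length on the left and the union exon length on the right (KRT13 and KRT17, at 6 counts or fewer, are not drawn). With either length KRT7 takes a larger share in both USP12 libraries, and KRT81 a smaller one, than in both control libraries.

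The makeup of the pool differed accordingly. KRT7 made up 18.7% and 24.5% of the summed level per MANE Select length in control cells, and 34.9% and 35.5% in USP12 cells. KRT81 made up 26.1% and 24.1% in control cells and 16.6% and 15.5% in USP12 cells. The shares of KRT8 (31.7% and 30.9%, then 28.7% and 28.8%) and KRT18 (19.6% and 17.5%, then 18.1% and 18.2%) differed less. With the union of all annotated exons as the length, KRT81 took the largest share in every library, from 32.9% to 48.9%. KRT8 was then below KRT18 and KRT81 in every library, while per MANE Select length it was above both. KRT8 took 15.4% and 15.3% in control cells, and KRT18 16.9% and 15.4%. In USP12 cells KRT8 took 15.6% and 15.8%, and KRT18 17.4% and 17.8%. The annotated exons of KRT8 then add up to 6881 bases against 1784 for its MANE Select transcript, and those of KRT7 to 3999 against 1625, while KRT81 has 1929 by either length.

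As both chain types are needed for a filament, their sums were compared. Type I keratins made up 20.2% and 17.0% of the summed level per union exon length in control cells, and 18.6% and 18.8% in USP12 cells. The difference of 0.0843 percentage points lay within the spread between the control libraries (exact permutation test, two-sided p = 1), and with 2 against 2 libraries that test cannot give a p below 0.333. Per MANE Select length the type I share was 22.6% and 19.0%, then 19.0% and 19.1%. Without KRT80 and KRT81, leaving the 8 other members, it was 39.9% and 32.0% in control cells and 29.1% and 28.8% in USP12 cells, where the groups did not overlap (exact permutation test, p = 0.333, the smallest possible).

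Few of the other keratins were expressed. Of 23 further type I genes listed, 2 were tested, and of 21 further type II genes, 3 were. KRT20, a type I keratin of gastrointestinal epithelium, had 197 and 152 counts in control cells and 41 and 29 in USP12 cells, a log2 fold change of -2.23 (quasi-likelihood adjusted p = 0.338), and met the criterion. KRT10, the type I keratin of the upper epidermis, had 519 and 430 counts against 389 and 268, and the groups overlapped in CPM (log2 fold change -0.44, quasi-likelihood adjusted p = 0.941). KRT85, a further hair keratin, had 0 and 45 counts in control cells and 16 and 13 in USP12 cells, so the control libraries lay on either side of the others. KRT5, which marks basal cells, had at most 5 counts in any library, and KRT14 had 0.

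Among 13 other intermediate filament genes, 10 were tested, with a median log2 fold change of 0.13. VIM, the vimentin gene of mesenchymal cells and many carcinoma lines, had 11249 and 11734 counts in control cells and 17441 and 15089 in USP12 cells. Its log2 fold change was 0.62 (SE 0.32, quasi-likelihood adjusted p = 0.806), with both USP12 libraries above both control libraries. The 7 fibroblast markers summed to 18.0 and 3.21 CPM in control cells and 21.2 and 17.1 CPM in USP12 cells, and their part in this was not tested. The criterion was met by 1 gene of the list, PRPH, the peripherin gene of peripheral neurons, with 43 and 31 counts against 9 and 6 (log2 fold change -2.20, quasi-likelihood adjusted p = 0.560). Lower by the criterion were 4.41% of all tested genes.

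Of 16 genes for linkers and anchors of keratin filaments, such as desmosomal plakins and plakophilins, 14 were tested. None met the criterion (0 of 14, edgeR's quasi-likelihood test), and 0 had an unadjusted p under 0.05. Of all tested genes 4.41% met the criterion as lower and 2.92% as higher, so 0 of 14 is near these shares. The median log2 fold change of the 14 genes was -0.42, against a median of -0.06 over all tested genes. The direction of several of them depended on the control library. DSG2 was at 0.35 against control replicate 1 alone and at -0.78 against control replicate 2 alone, and JUP at -0.47 and 0.39.

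Of 13 transcription factor genes of epithelial identity, 10 were tested. The criterion was met by 3, all of them lower in USP12 cells. Of all tested genes 4.41% met it as lower and 2.92% as higher. The list was chosen with earlier results of these data known. EHF, an ETS factor of epithelial cells, had 432 and 932 counts in control cells and 48 and 77 in USP12 cells (log2 fold change -3.26, SE 0.53, quasi-likelihood adjusted p = 0.182). GRHL3, a grainyhead factor of barrier formation, had 2071 and 468 counts against 113 and 111, so that its log2 fold change was -3.53 with an SE of 0.87, and -1.71 against control replicate 2 alone. TP63, which encodes the p63 factor of basal cells, had 559 and 810 counts against 139 and 299 (log2 fold change -1.50, quasi-likelihood adjusted p = 0.501). The median log2 fold change of the 10 genes was -1.02, against -0.06 over all tested genes.

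**Figure D4:**
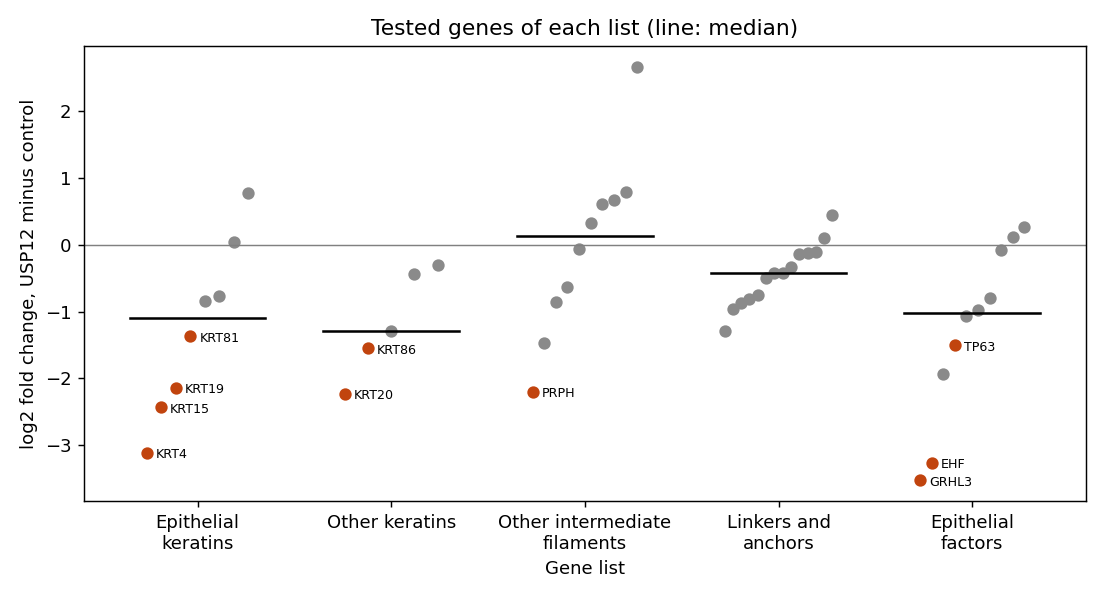
Log2 fold change (USP12 minus control) of every tested gene in 5 lists, with the median as a line, and in orange and with their names the genes that met the criterion in either direction. All 10 named genes lie below 0, and the linkers and anchors hold none. Over all tested genes 4.41% met the criterion as lower and 2.92% as higher.

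The genes whose pattern over the 4 libraries came closest to a keratin were found by the distance between mean-centred log2 CPM. For KRT8 these were MAN2C1, SCPEP1 and FBXL15 (distances 0.0374, 0.0525 and 0.0561), and for KRT18 they included TSPAN31 and CORO1B (0.0140 and 0.0705). With only 4 libraries such patterns are common, and 111 genes lay within a distance of 0.2 of KRT8 and 136 within that of KRT18. No gene lay that close to KRT4 (0 genes), for which the nearest were LAMA4 (0.305), ACVRL1 (0.318) and EHF (0.319). The distance was not scaled to the size of the differences, and KRT4 was taken for having the widest one. The 0 thus need not mark an unusual pattern. LAMA4, which encodes a laminin chain, had 43 and 71 counts in control cells and 2 and 5 in USP12 cells.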

How the data were processed

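RNA from 4 A549 libraries (2 control, 2 USP12, grouped by sample title) was sequenced by the authors. The deposited values are raw counts per gene, made by the authors with Seqtk, HISAT2 2.0.4 (GRCh38) and StringTie 1.3.0 from uniquely mapped fragments of libraries made with a stranded kit. Whether the counting used strand, and the annotation release, are not given in the sources used here. Fits used R 4.3.3 and edgeR 4.0.16 on all genes (filterByExpr, TMM, glmQLFit with legacy = TRUE, Benjamini-Hochberg), leaving 15222 genes. Standard errors are the log2 fold change over the square root of F. DESeq2 1.42.0 and the other fits were alternatives. Positions, lengths and GC content came from GENCODE 44 (GRCh38), in which 99.2% of tested genes had a GC value, and promoters from RefSeq (GRCh38.p14). The fit was checked on simulated counts.

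The members and lists were chosen with earlier results of these data known. The genes named were the 10 keratins, USP12, other keratins above 10 counts in 2 libraries, genes of the filament, linker and transcription factor lists meeting the criterion, VIM and the 3 nearest patterns, of which 1 is not reported here. KRT5, KRT14, KRT87P, KRT7-AS, LINC00592 and single cell type markers, to which that rule did not apply, were named after their values were seen. The MANE Select length and the addition of KRT83 were alternatives chosen after seeing the data.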

Additional observations from a re-analysis of the deposited data

How the results depend on the processing

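The keratin calls depended on the libraries in the fit. Leaving out 1 library at a time, the number of keratins lower by the criterion was between 2 and 6 (4 with all libraries): without control replicate 1 it was KRT4 and KRT15 alone, and 1 keratin, KRT80, was then higher (between 0 and 1 over the libraries left out). In these fits between 0 and 6 keratins were lower and between 0 and 1 higher by adjusted p (threshold 0.05). Over all genes between 28 and 2612 were lower and between 12 and 2550 higher by the same threshold, and by the criterion between 300 and 2134 lower and between 159 and 2495 higher, against 671 and 445. KRT7 had a log2 fold change of -0.12 without control replicate 2 (highest 0.28, without control replicate 1), and each other tested keratin kept its direction in every alternative that was run. Lowest and highest log2 fold changes with 1 library left out were -3.39 and -2.87 for KRT4, -2.84 and -1.80 for KRT15, -2.78 and -0.87 for KRT19, and -1.73 and -0.82 for KRT81. Without USP12 replicate 1 KRT15, and without USP12 replicate 2 KRT81, did not meet the criterion. A group with 1 library was assumed to vary like the other.

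The quasi-likelihood test had 4.15 prior degrees of freedom. They were infinite in the fits without 1 USP12 library, without a filter on low counts, which called 361 genes lower and 167 genes higher by adjusted p (4 keratins lower; by the criterion 1173 and 688 genes), and with the replicate number as a block, where 251 were lower and 153 higher (4 keratins lower: KRT4, KRT15, KRT19 and KRT81). Same-numbered libraries deviated together with a correlation of 0.152 across genes, and the labels give no pairing. At that threshold the DESeq2 Wald test called 273 lower and 133 higher (3 keratins), the exact test 262 and 167 (2), the likelihood ratio test 287 and 186 (2), the GC content offset 14 and 6 (0 keratins), and the offset with the replicate block 143 and 74 (1 keratin, KRT4). DESeq2's size factors and at least 10 counts in every sample called 0 genes. With the GC content offset alone, the log2 fold changes of the tested keratins other than KRT4 moved upwards. KRT19 went from -2.14 to -1.66, KRT81 from -1.37 to -1.003, KRT8 from -0.84 to -0.59 and KRT18 from -0.76 to -0.53. KRT15 went from -2.43 to -2.24, KRT7 from 0.05 to 0.27 and KRT80 from 0.78 to 0.96. KRT4 stayed at -3.11. The part of GC content in the keratin results was not tested.

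The difference in the type I share was -7.01 percentage points without KRT80 and KRT81 and -1.73 with MANE Select lengths, and between -1.50 and 1.67 with 1 library left out. The cause of these shifts was not tested. Levels under 3 counts could not be told from 0.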
